A study of Arabidopsis thaliana with 6 samples.

Results

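The genes described here make aliphatic glucosinolates in Arabidopsis, and were read by 10 of the 22746 probe sets of an Affymetrix array, chosen by probe set identifier: 2 for the regulators, 4 for chain elongation and 4 for the core structure. The platform annotation named 1 of them, BCAT4. The other 9 carry the gene names given with the identifiers, and these names could not be checked against the annotation used here.

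Aliphatic glucosinolates are sulfur-rich defence compounds that Arabidopsis and its relatives make from methionine. Their synthesis runs in 3 stages: the side chain of methionine is lengthened in the plastid, the core structure is built by cytochromes P450 and later enzymes with a sulfotransferase as the last of them, and the side chain is then modified. The R2R3-MYB factors MYB28 and MYB29 switch on the genes of these steps, and damaged leaves release toxic products when myrosinases meet the stored compounds.

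Each probe set was measured in leaves of Arabidopsis thaliana, ecotype Col0, with the transgene AmGSTF1 (3 arrays) and in leaves of wild-type Col0 with no transgene (3 arrays). AmGSTF1 encodes a glutathione transferase of a weedy grass, an enzyme the series studies in relation to multiple herbicide resistance. In both groups, 10 leaves per replicate were floated in a growth room on 0.1% Tween 20 with 0.1% acetone and collected after 4 hours, following seed chilling at 4 °C for 72 hours and growth on compost at 20 °C under 16 hours of light. Thus all values describe floated leaves, and the labels mention no herbicide treatment. The labels call the replicates biological triplicates. The sources used here do not give the plants' age, the promoter of the transgene or the number of lines.

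The values are MAS5 signals, Affymetrix's summary of a probe set's brightness on a linear scale. The median signal was 151 to 164 on the AmGSTF1 arrays and 146 to 150 on the Col0 arrays. The leaf marker RCA, the activase of Rubisco, had signals of 15370 to 21336 in AmGSTF1 leaves and 18989 to 22829 in Col0 leaves, and LHCB4.2, an antenna protein gene, had 8260 to 13241 and 7542 to 8565. Of 13 marker genes listed for leaf and other cell types, 5 had a named probe set. Of these, 0 were called (adjusted p under 0.05), beside 5.04% of all probe sets tested, so 5 genes are too few to compare with that share. The root marker PYK10 had signals of 63.2 to 173 in AmGSTF1 leaves and 38.5 to 85.9 in Col0 leaves. The guard cell regulator FAMA (FMA in the gene table) had 60.0 to 96.3 in AmGSTF1 leaves and 107 to 127 in Col0 leaves. These did not overlap, as for 27.6% of all probe sets tested. The sugar transporter SWEET11, a vascular marker, had 3368 to 4847 in AmGSTF1 leaves and 2738 to 5236 in Col0 leaves. The part of cell composition in the results was not tested. Whole leaves were measured, so fewer cells of a type and less RNA per cell cannot be told apart.

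None of the 10 genes was called higher or lower in AmGSTF1 leaves. The comparison asked whether the plant's own aliphatic glucosinolate genes differ in expression between leaves labelled with the AmGSTF1 transgene and wild-type leaves. A probe set was called where its adjusted p from limma was under 0.05, and 5.04% of the 13647 probe sets tested were called (2.14% higher and 2.9% lower). This background depended on single arrays: 292 probe sets were called higher and 396 lower with all arrays, 6 and 5 without Col0 replicate 1, 8 and 5 without Col0 replicate 3, 7 and 10 without AmGSTF1 replicate 1, 107 and 144 without AmGSTF1 replicate 3, 503 and 566 without AmGSTF1 replicate 2, and 603 and 530 without Col0 replicate 2. With all arrays, 0 of 10 members were called, and 0 had an unadjusted p under 0.05, where 23.3% of all probe sets had one. The signals of the groups overlapped for all 10 members, while they did not overlap for 27.6% of all probe sets tested. These 10 genes, which also varied together across the replicates, are too few to compare with such shares. Within groups the members varied more than most probe sets, with a median pooled SD of 0.34 on the log2 scale, beside 0.22 over all. The lack of calls is thus no sign of unusually steady expression. All 10 members were bright enough to be tested: the lowest member signal on any array was 106, and the limit of the filter on dim probe sets corresponded to a signal of 72.5.

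**Figure D1:**
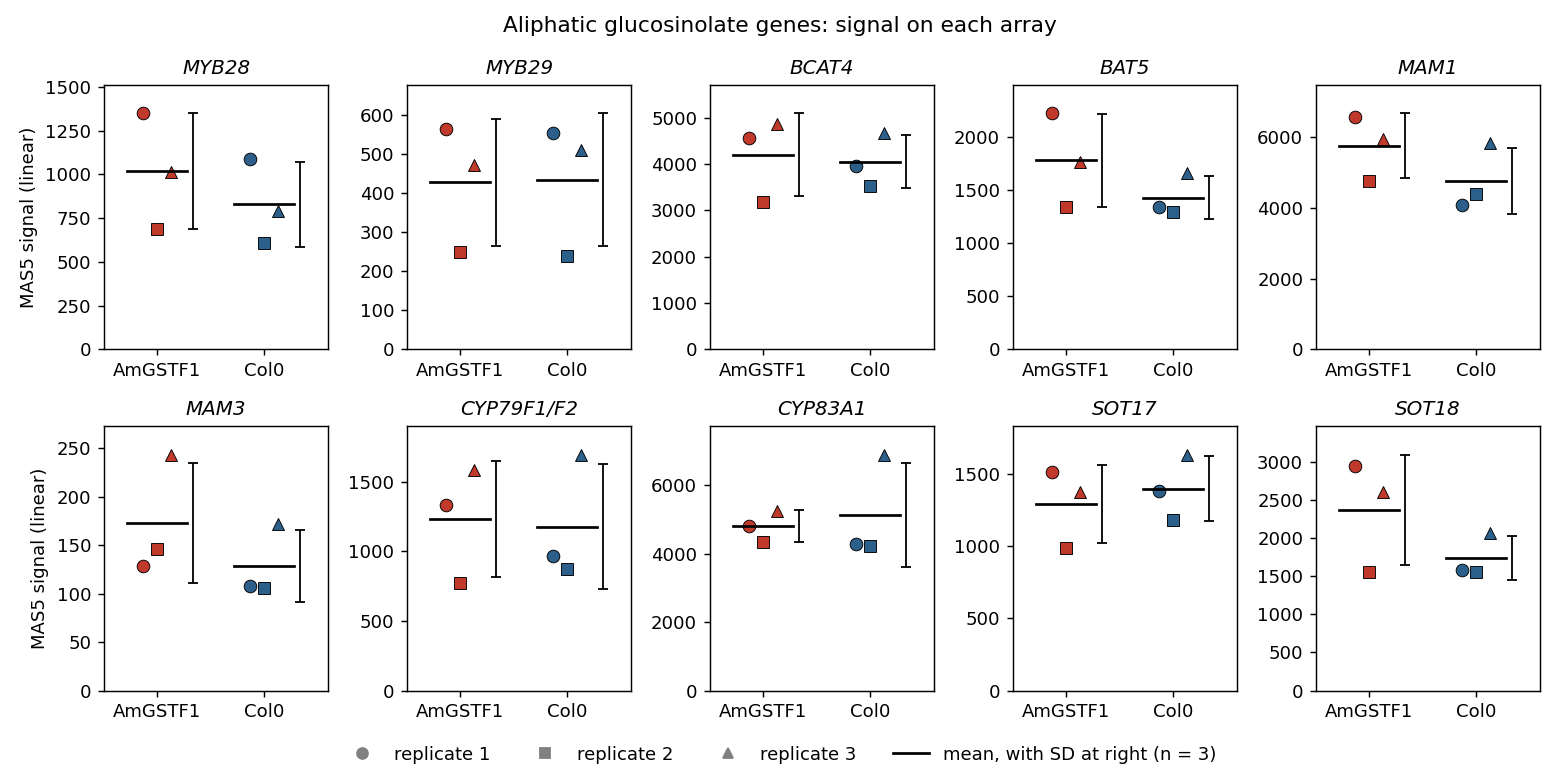
MAS5 signal (linear, from 0) of each of the 10 probe sets on the 3 AmGSTF1 arrays (red, left) and the 3 Col0 arrays (blue, right). Symbols mark the replicate number, horizontal lines the group mean and error bars the SD (n = 3). The groups overlap in every panel, and the square of replicate 2 is the lowest point in both groups in 8 of the 10 panels.

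The data also limit how far these genes could have moved. The differences, AmGSTF1 minus Col0 on the log2(signal + 16) scale, ran from -0.12 for SOT17 to 0.41 for SOT18. The 95% intervals reached down to -0.80 at the lowest (MYB29) and up to 0.99 at the highest (MAM3), so each of the 10 intervals lay inside a 2-fold change in either direction. Intervals inside that range were common, at 81.2% of all probe sets tested. With a pseudocount of 1 the upper end of MAM3 was 1.09, and without 1 array 6 to 9 of the 10 intervals stayed inside the range. Of the 10 members, 7 had a higher mean and 3 a lower mean in AmGSTF1 leaves. Their median difference was 0.17, beside 0.05 over all probe sets tested, and no test was made of this median. Without 1 array the median ran from 0.01 (without Col0 replicate 2) to 0.39 (without AmGSTF1 replicate 2), and the number of members with a higher mean from 5 to 10.

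**Figure D2:**
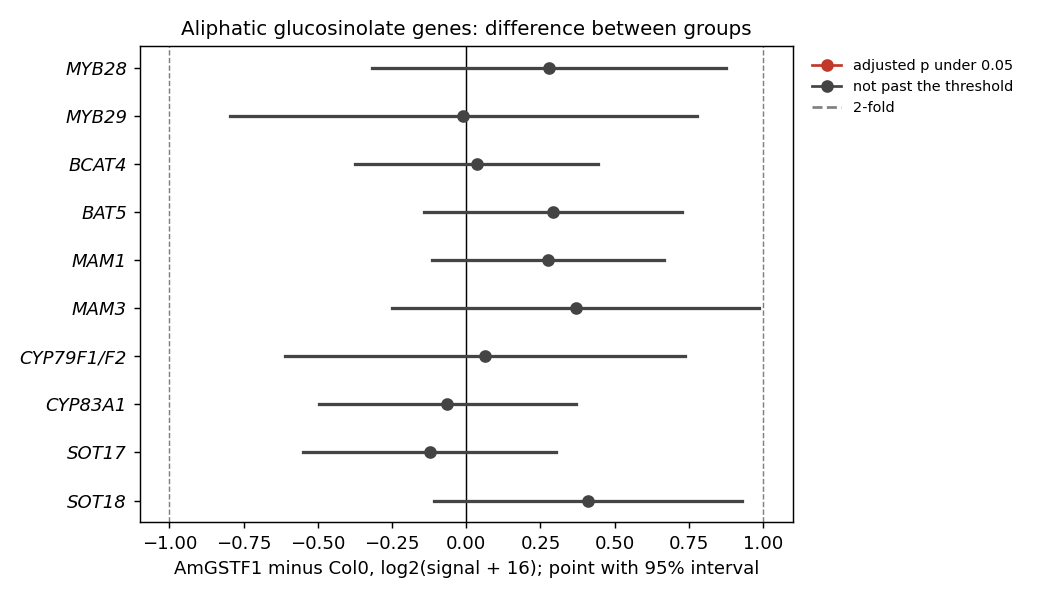
Difference between AmGSTF1 and Col0 leaves for each of the 10 probe sets, on the log2(signal + 16) scale, with limma's 95% interval. The dashed lines mark a 2-fold change. The 10 intervals include 0 and end inside the dashed lines, with the highest end at 0.99 for MAM3 and the lowest at -0.80 for MYB29.

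The regulators come first in the pathway. MYB28 (probe set 247549_at), which is known to control genes for both short-chain and long-chain aliphatic glucosinolates, had signals of 1349, 689 and 1016 in AmGSTF1 leaves and 1089, 606 and 793 in Col0 leaves. A single AmGSTF1 array, replicate 1, lay above all Col0 arrays, and the lowest array of each group was replicate 2. The mean was 1018 ± 330 in AmGSTF1 leaves and 829 ± 244 in Col0 leaves (SD, n = 3), a log2 difference of 0.28 (95% interval -0.32 to 0.88, adjusted p = 0.575).

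MYB29 (250598_at), which acts beside MYB28 and mainly on the short-chain branch, had nearly equal means in the groups. Its signals were 566, 249 and 472 in AmGSTF1 leaves and 554, 240 and 511 in Col0 leaves. Replicate 2 was the lowest array of both groups by a wide margin, and the highest signal was 2.27 times the lowest in AmGSTF1 leaves and 2.31 times the lowest in Col0 leaves. The log2 difference of MYB29 was -0.01 (-0.80 to 0.78, adjusted p = 0.990), the smallest difference of the 10 and the one with the widest interval.

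Chain elongation starts with BCAT4 (257021_at), the aminotransferase that turns methionine into its 2-oxo acid. BCAT4 had signals of 4565, 3179 and 4860 in AmGSTF1 leaves and 3960, 3538 and 4673 in Col0 leaves. One AmGSTF1 array lay above and another below the whole Col0 range, and the log2 difference was 0.04 (-0.37 to 0.45, adjusted p = 0.932). BAT5 (254862_at), the transporter that carries the 2-oxo acids across the plastid envelope, had 2219, 1342 and 1764 in AmGSTF1 leaves and 1334, 1290 and 1654 in Col0 leaves. Its replicates 1 and 3 in AmGSTF1 leaves lay above all Col0 arrays while replicate 2 lay among them, and the log2 difference was 0.29 (-0.14 to 0.73, adjusted p = 0.407).

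MAM1 (249866_at) and MAM3 (249867_at) are methylthioalkylmalate synthases, which condense the 2-oxo acid with acetyl-CoA. MAM1 makes the short chains, and MAM3 can also make the long ones. Their genes are neighbours on chromosome 5, with 0 protein-coding genes between them in the RefSeq table, which lists MAM3 as IMS2. MAM1 had signals of 6562, 4761 and 5966 in AmGSTF1 leaves and 4087, 4401 and 5832 in Col0 leaves. As for BAT5, AmGSTF1 replicates 1 and 3 exceeded every Col0 array, and the log2 difference was 0.28 (-0.12 to 0.67, adjusted p = 0.381).

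MAM3 had signals of 129, 146 and 243 in AmGSTF1 leaves and 108, 106 and 171 in Col0 leaves. It was the member whose signals came closest to the filter on dim probe sets, and the added 16 makes differences of such dim probe sets look smaller than they are. Replicate 3 was the highest array in both groups, and the lower arrays of AmGSTF1 lay within the Col0 range. The log2 difference of MAM3 was 0.37 (-0.25 to 0.99, adjusted p = 0.464).

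The core structure begins with CYP79F1 and CYP79F2, cytochromes P450 that turn elongated methionine into aldoximes. These genes are also neighbours, with 0 protein-coding genes between them, and 1 probe set reads both, so their levels cannot be separated here. The shared probe set, 262717_s_at, had signals of 1335, 772 and 1588 in AmGSTF1 leaves and 968, 871 and 1696 in Col0 leaves. The lowest of all 6 arrays was an AmGSTF1 array and the highest a Col0 array, and the log2 difference of CYP79F1/F2 was 0.06 (-0.61 to 0.74, adjusted p = 0.927).

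CYP83A1 (254687_at), which oxidises the aldoximes in the next step, had signals of 4822, 4338 and 5262 in AmGSTF1 leaves and 4294, 4240 and 6901 in Col0 leaves. All AmGSTF1 arrays fell inside the Col0 range, which replicate 3 of Col0 set at its upper end. The log2 difference of CYP83A1 was -0.06 (-0.50 to 0.37, adjusted p = 0.882).

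SOT17 (255773_at) and SOT18 (260385_at) are sulfotransferases that add the sulfate group to desulfoglucosinolates. Their differences were the lowest and the highest of the 10. SOT17 had signals of 1515, 990 and 1373 in AmGSTF1 leaves and 1381, 1180 and 1634 in Col0 leaves, which overlapped (log2 difference -0.12, -0.55 to 0.30, adjusted p = 0.745). SOT18 had 2945, 1559 and 2608 in AmGSTF1 leaves and 1583, 1554 and 2064 in Col0 leaves. Replicates 1 and 3 of AmGSTF1 exceeded all Col0 arrays, and replicate 2 lay below every Col0 array except replicate 2 of Col0.

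The mean of SOT18 was 2371 ± 723 in AmGSTF1 leaves and 1733 ± 287 in Col0 leaves (SD, n = 3), a log2 difference of 0.41 (-0.11 to 0.93, adjusted p = 0.321). SOT18 was the 1 member whose call turned on a single array. It was called higher without AmGSTF1 replicate 2 (0.68, adjusted p = 0.0431) and without replicate 2 of both groups (0.61, adjusted p = 0.0416). Leaving out Col0 replicate 2 gave an adjusted p of 0.459, and leaving out AmGSTF1 replicate 1 one of 0.690. Calls over all 13647 probe sets tested also rose in the settings that called SOT18, from 292 higher and 396 lower with all arrays. They were 503 and 566 without AmGSTF1 replicate 2, and 1087 and 918 without replicate 2 of both groups. Over all 17 other settings the adjusted p of SOT18 ran from 0.0416 to 0.690, and no other member was called in any of them.

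Because SOT17 and SOT18 were read on the same arrays, their log2 ratio within each array was also compared, a choice made after the values were seen. The log2 ratio of SOT18 to SOT17 was 0.95, 0.65 and 0.92 in AmGSTF1 leaves and 0.19, 0.39 and 0.33 in Col0 leaves. The groups did not overlap and differed by 0.53. SOT17 and SOT18 had the lowest and the highest differences of the 10 members. Their ratio therefore had to differ most among the 45 pairs of members. The exact permutation p was 0.1 (two-sided), the smallest that 3 arrays against 3 can give. It was 0.643 after Benjamini-Hochberg adjustment over the 45 pairs. This test could not reach the threshold used for calls whatever the values, so no conclusion is drawn from it. Across these 45 pairs, the ratio did not overlap between the groups in 7 (15.6%), where it did not overlap in 27.9% of all pairs of tested probe sets. The share among the members was below the background, but the 45 pairs reuse the same 10 probe sets. Of the 7 pairs without overlap, 4 held SOT17. The pairs are therefore not independent, and no test was made of this share. Neither sulfotransferase gene was called on its own.

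The members shared a pattern across the replicates. In AmGSTF1 leaves replicate 2 was the lowest array for 9 of the 10 members, and in Col0 leaves replicate 2 was again the lowest for 9 of 10. The exceptions were MAM3 in AmGSTF1 leaves and MAM1 in Col0 leaves, where replicate 1 was lowest. Replicate 2 was lowest in both groups for 8 members, a pattern that 13.9% of all probe sets tested had. The leaf markers RCA and LHCB4.2 had this pattern too, while PYK10, FAMA and SWEET11 did not. Of the 9 other glucosinolate genes tested, described below, 3 had it.

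The median deviation of the members from their group mean was -0.37 on AmGSTF1 replicate 2 and -0.22 on Col0 replicate 2, on the log2 scale. Over all probe sets tested the same medians were -0.01 and 0.01. The median signal of the whole array was also lowest on replicate 2 in both groups, at 151 against 163 and 164 on the other AmGSTF1 arrays and at 146 against 149 and 150 on the other Col0 arrays. Replicate 2 was the lowest array of its group for 39.4% of all tested probe sets in AmGSTF1 leaves and 35.3% in Col0 leaves. The high arrays were less alike: replicate 3 was the highest Col0 array for 8 members, while in AmGSTF1 leaves replicate 1 was the highest for 6 and replicate 3 for 4. Over all tested probe sets, Col0 replicate 3 was the highest of its group for 32.8%. The same shares were 33.6% for AmGSTF1 replicate 1 and 32.2% for AmGSTF1 replicate 3. The regulators stood out in Col0 leaves, where MYB28 and MYB29 were both highest on replicate 1 and the remaining 8 members were highest on replicate 3.

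**Figure D3:**
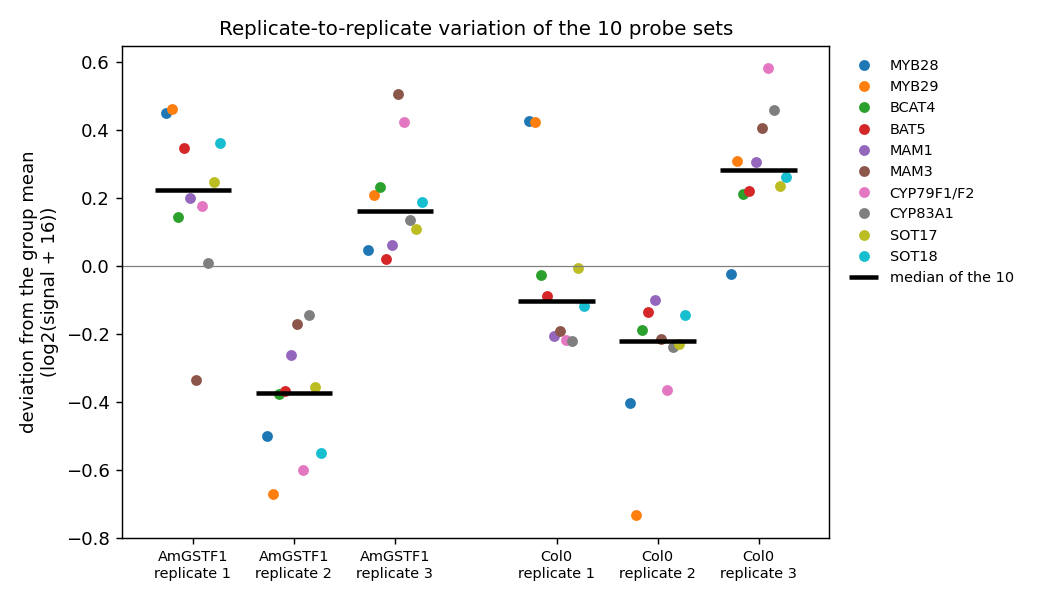
Deviation of each of the 10 probe sets from its own group mean, on the log2(signal + 16) scale, for the 3 AmGSTF1 arrays (left) and the 3 Col0 arrays (right). Points are probe sets and black bars the median of the 10, which lies at -0.37 on AmGSTF1 replicate 2 and -0.22 on Col0 replicate 2. On Col0 replicate 1, MYB28 and MYB29 lie well above the other 8.

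The pooled SD within groups had a median of 0.34 over the members and 0.22 over all probe sets tested, on the log2 scale. It exceeded the median of all probe sets in 10 of 10 members, and the steadiest member (0.25) still varied more than 61% of all probe sets. MYB29 varied most, at 0.62. Array weights estimated from all tested probe sets were also lowest for both replicates 2, at 0.602 for AmGSTF1 and 0.645 for Col0. The labels name no batch for these arrays, and the part of handling, of the plants and of the array in this shared variation was not tested.

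The members' profiles over the 6 arrays differed in how near they lay to the median profile of the 10, which the members themselves define. Each profile was centred on its own mean, and likeness was the root mean square distance to that median profile. The distance was smallest for BCAT4 (0.10) and largest for MYB29 (0.35), with MAM3 (0.31) and MYB28 (0.30) next to the largest. Over 7340 other named probe sets the median distance to the same profile was also 0.35, about that of MYB29. The profiles were not scaled, so this distance counts the size of a swing as well as its shape. MYB29 had the largest SD of the 10 and fell furthest on replicate 2 (-0.67 in AmGSTF1 and -0.73 in Col0 leaves). Its distance therefore does not show that it lacked the shared pattern. The 5 closest of them were AT3G07510, AT3G10540, AT3G56130, AT4G31140 and AT5G50130, at distances of 0.07 to 0.08. The gene table gives none of these loci a symbol. None of these 5 was called (adjusted p = 0.638 to 0.865), but they were picked for likeness to the profile of 10 uncalled members. Their lack of a call is therefore not a separate result.

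Other genes of glucosinolate metabolism were taken from lists of 53 loci, of which 11 could be tied to a probe set and 9 passed the filter on dim probe sets. The groups did not overlap for 4 of these 9, beside 27.6% of all probe sets tested. Of the 9, 0 were called higher and 1 lower, beside 2.14% and 2.9% of all probe sets tested. The call was AT1G04770, entered in the list of regulators as SDI2. SDI1 and SDI2 are known as genes that are induced by sulfur shortage and hold back aliphatic glucosinolate synthesis. AT1G04770 had signals of 427, 362 and 375 in AmGSTF1 leaves and 1215, 1295 and 1504 in Col0 leaves, with a wide gap between the groups. Its log2 difference was -1.74 (-2.07 to -1.42, adjusted p = 0.00199), a fall in AmGSTF1 leaves. MYB28 had an interval of -0.32 to 0.88 and MYB29 one of -0.80 to 0.78. Any link between the fall of AT1G04770 and the aliphatic genes was not tested.

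The list of regulators held 7 loci, of which 3 were tested. MYC3 and MYC4 are jasmonate-pathway bHLH factors that act together with these MYB factors. MYC4 had signals of 248, 224 and 209 in AmGSTF1 leaves and 545, 370 and 295 in Col0 leaves, which did not overlap. Its log2 difference of -0.75 (-1.23 to -0.26) missed the threshold (adjusted p = 0.0779) and passed with array weights (-0.82, adjusted p = 0.0397), while over all other settings its adjusted p ran up to 0.237. Array weights also raised the calls over all probe sets tested, from 292 higher and 396 lower to 814 and 827. MYC3 had 446, 483 and 549 in AmGSTF1 leaves and 449, 471 and 426 in Col0 leaves, with a log2 difference of 0.13 (-0.20 to 0.45, adjusted p = 0.646).

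In the list of other aliphatic genes, 3 of 20 loci were tested and 0 were called. GSTU20, a glutathione transferase thought to act in the core pathway, had signals of 3581, 2144 and 3756 in AmGSTF1 leaves and 2701, 2136 and 3677 in Col0 leaves. AT2G31790, listed as the glucosyltransferase UGT74C1, had 937, 475 and 813 in AmGSTF1 leaves and 800, 591 and 816 in Col0 leaves. For both genes replicate 2 was the lowest array of each group, as for 8 of the 10 members, and their differences were 0.15 (-0.41 to 0.70) and -0.03 (-0.58 to 0.52). AT2G25450, listed as GSL-OH, an enzyme of side-chain modification, had 3514, 4223 and 3233 in AmGSTF1 leaves and 2740, 3183 and 2537 in Col0 leaves. Here replicate 2 was the highest array of each group, and the groups did not overlap (difference 0.37, 0.03 to 0.71, adjusted p = 0.176). AOP3 had signals of 3.38 to 43.6 in AmGSTF1 leaves and 7.68 to 32.3 in Col0 leaves, too low to be tested.

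**Figure D4:**
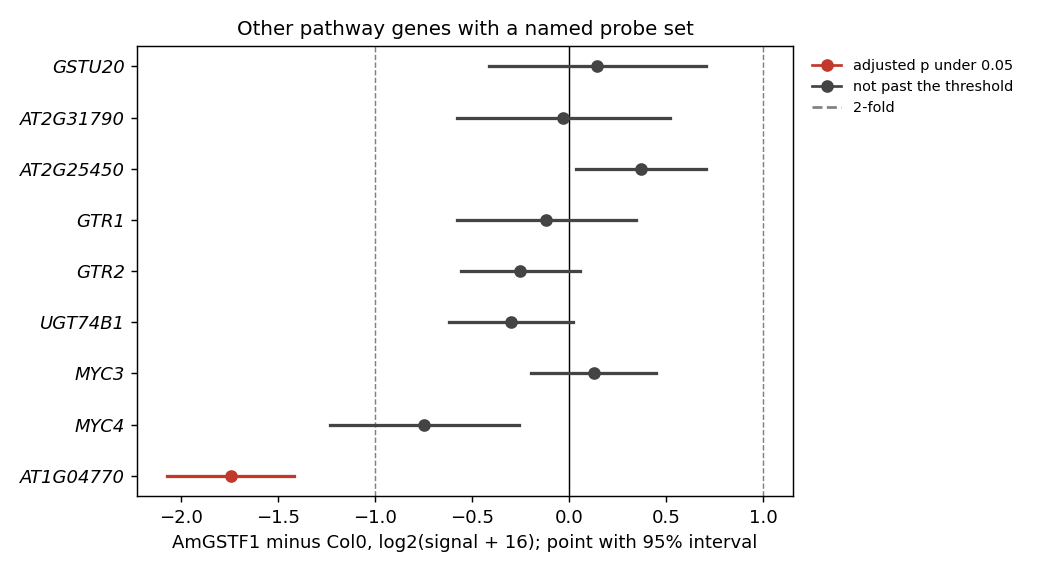
Difference between AmGSTF1 and Col0 leaves for the 9 tested genes of the other glucosinolate lists, on the log2(signal + 16) scale, with limma's 95% interval. AT1G04770 (red, -1.74) was the 1 gene past the threshold of adjusted p under 0.05. MYC4 was next at -0.75, and the other 7 lay between -0.30 and 0.37.

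GTR1 and GTR2 are the plasma membrane transporters that load glucosinolates for movement between tissues. GTR1 had signals of 1973, 3707 and 2894 in AmGSTF1 leaves and 2966, 2930 and 3118 in Col0 leaves, which overlapped (difference -0.12, -0.58 to 0.34). GTR2 had 550, 476 and 498 in AmGSTF1 leaves and 643, 589 and 588 in Col0 leaves, without overlap but also without a call (-0.25, -0.56 to 0.06, adjusted p = 0.309). UGT74B1, the glucosyltransferase shared by the aliphatic and indolic routes and the 1 tested gene of the 5 shared core loci, differed by -0.30 (-0.62 to 0.02, adjusted p = 0.241). BGLU28, a beta-glucosidase gene and the 1 named locus among the 9 of the breakdown list, had signals of 0.785 to 23.0 in AmGSTF1 leaves and 4.57 to 35.5 in Col0 leaves and was not tested. In the indolic list 0 of 10 loci had a named probe set, so the indolic branch was not analysed here.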

How the data were processed

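The authors deposited linear MAS5 intensities. The submitters' processing notes name Affymetrix Expression Console 1.1 as the tool. The trimmed mean, without the lowest and highest 2% of probe sets, was 496 on every array, so no further normalization was applied. Groups were taken from the transgene named in the labels. Signals were taken as log2(signal + 16), the 40% of probe sets with the lowest mean were left out, and AmGSTF1 was compared with Col0 over the remaining 13647 with limma 3.58.1 in R 4.3.3 (lmFit, eBayes with an intensity trend, Benjamini-Hochberg over all of them). Tests are two-sided. The number of arrays limits the precision. Intervals are 95% intervals for each probe set alone.

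In the platform annotation 13513 probe sets carry 1 gene, 503 carry several and 8730 are unnamed here. Listed loci were matched through the RefSeq gene table of TAIR10.1. The text names all members, listed genes that passed, genes of the regulator, transporter and aliphatic lists with a named probe set, and the 5 most alike named probe sets. UGT74B1, BGLU28 and the marker genes were added after their values were seen. The members and lists were chosen with earlier results of these data known. Figures were drawn with Python 3.11.15, and the limma steps were tested on simulated data. Alternatives were other pseudocounts, filters, scalings and variance models, a replicate block, a looser threshold and leaving out each array. Leaving out replicate 2 of both groups was chosen after the data were seen.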

Additional observations from a re-analysis of the deposited data

How the results depend on the processing

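The 10 members were refitted under 17 other settings, which gave 170 values, of which 2 passed the threshold, both for SOT18. The number of members called higher was 0 with all arrays and 0 to 1 when 1 array was left out, with the 1 call made without AmGSTF1 replicate 2; it was also 1 without replicate 2 of both groups, and the number called lower was 0 in every setting run. A sign turned in 17 of the 170 values, none of them past the threshold, and these fell on MYB29, BCAT4, CYP79F1/F2, CYP83A1 and SOT17. The differences of MYB28, BAT5, MAM1, MAM3 and SOT18 were positive in every setting run. The members' median difference ranged from 0.01 to 0.39 when 1 array was left out and from 0.08 to 0.23 under the other planned settings, with 0.08 under median centring, where the median of all probe sets was -0.04. The statement that all 10 intervals lie inside a 2-fold change held under 7 of the other settings and for 9 of 10 members with a pseudocount of 1, no filter or array weights; it held for 6 to 9 without 1 array and for 9 without replicate 2 of both groups.

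Among the other pathway genes the number called lower was 1, and 2 with array weights or at an adjusted p under 0.1, the added gene being MYC4. Over all probe sets tested, 814 were called higher and 827 lower with array weights, and 745 and 777 at an adjusted p under 0.1. AT1G04770 was called in all 17 settings, with differences from -1.83 to -1.63. Over all probe sets, leaving out 1 array gave 6 to 603 calls higher and 5 to 566 lower, against 292 and 396. Leaving out replicate 2 of both groups gave 1087 and 918. The cause of these shifts was not tested. With a replicate block the calls were 40 and 38, and 0 members were called (smallest adjusted p = 0.259, for SOT18). The replicate numbers were not shown to pair the samples. Across all tested probe sets, deviations from the group means had correlations of 0.146, -0.027 and -0.050 for replicates 1, 2 and 3. The members were more alike, as replicate 2 was lowest in both groups for 8 of the 10. With the block the lowest end of their intervals was -0.48 and the highest 0.86, against -0.80 and 0.99 without it. For MYB29 the interval with the block was -0.37 to 0.35. The difference in the ratio of SOT18 to SOT17 ranged from 0.48 to 0.67 under its other settings. Only 3 arrays a group limit what smaller changes could be seen.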
